A study of Mus musculus with 8 samples.

Results

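Ozone was compared with filtered air in the lungs of C3H/HeOuJ mice, the C3H substrain with an intact endotoxin receptor gene Tlr4. The comparison used the arrays whose titles name this substrain with ozone, 2 in number, and those that name it with air, also 2, so that it rests on 4 of the 8 arrays of the series. Both groups were of strain C3H/HeOuJ and were labelled with an exposure of 72 h, one to ozone and the other to filtered air; no allele, drug or other agent is named for either group. The ozone concentration, age and sex of the mice were not given in the labels. RNA came from whole lungs that had been frozen in liquid nitrogen and was read on Affymetrix mouse arrays of 12488 probe sets. The remaining 4 arrays were of the related substrain C3H/HeJ, 2 in ozone and 2 in filtered air, and were used for the common estimate of the spread and for comparison.

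Inhaled ozone reacts with the lipids and proteins of the fluid that lines the airways, and the resulting aldehydes and oxidised phospholipids injure the airway and alveolar epithelium. The injured lung is known to leak plasma proteins, to attract phagocytes, to make acute phase and antibacterial proteins, and to replace lost epithelial cells by division. Heat shock proteins, simple keratins, junction proteins and antioxidant enzymes are further groups of genes that are followed in such lungs.

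The values were 1 intensity per probe set and array, already scaled to a common level. Medians of the 4 arrays lay between 350.9 and 386, and 17.7% to 20.8% of the values of an array lay at or under a floor of 69.6, below which values were not told apart. Rank correlation between the arrays of a group was 0.952 in air and 0.931 in ozone, against 0.916 to 0.94 between an air and an ozone array. Array 1a of the ozone group thus resembled its partner 1b less closely than 1b resembled either air array. The labels do not explain the names 1a and 1b or say that they stand for separate mice. The p-values therefore reflect no more than how far the arrays of a group differ, a spread that may be technical, and the number of arrays limits the precision. For the actin controls, the intensity at the 5' end over that at the 3' end came to 0.766 and 0.756 on the ozone arrays and to 0.598 and 0.603 on the air arrays. The same ratio of Gapdh was 1.34 and 1.18 on the ozone arrays and 1.06 and 0.853 on the air arrays. A low ratio is the usual sign of degraded or incompletely copied RNA, so this measure of RNA quality moved with the exposure. Its part in the results was not tested. Values with the actin ratio in the model are given beside most of the called genes named below.

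Of 10953 probe sets tested, 50 passed an adjusted p of 0.05 in limma, of which 14 were higher in ozone (0.128% of those tested) and 36 were lower (0.329%). They named 43 genes, 11 higher and 32 lower, and 7 probe sets had no single gene name. The genes that rose included an antibacterial lectin, an acute phase serum amyloid, the keratins of simple epithelium and a lipase of oxidised phospholipids. Among those that fell were inducible chaperones, transcription factors, a tight junction scaffold and a marker of lymphatic endothelium. Without the adjustment, 851 probe sets were higher and 847 lower at a p under 0.05. Both ozone arrays lay above both air arrays for 2524 probe sets (23%) and below them for 2231 (20.4%). A log2 difference of at least 1 was found for 349 probe sets, and one of at most -1 for 368. Over all tested probe sets the median difference was 0.02, and the median standard error was 0.3. Not one probe set passed when any 1 of the 4 C3H/HeOuJ arrays was left out, although all 50 kept their sign.

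**Figure D1:**
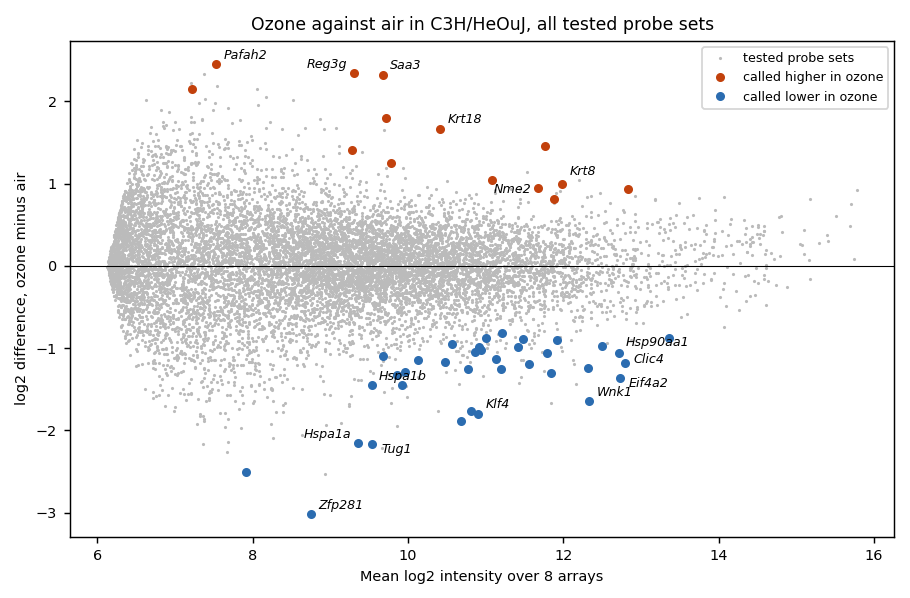
Each point is 1 of 10953 tested probe sets, with its mean log2 intensity over 8 arrays on the x axis and its log2 difference, ozone minus air in C3H/HeOuJ, on the y axis. The 14 probe sets called higher and the 36 called lower lie mostly at middle and high intensities, and the scatter of the uncalled ones widens towards the dim end.

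Reg3g and Saa3, of the acute phase and antibacterial list, rose. Reg3g, which encodes a lectin that binds bacterial cell walls, read 249.7 and 286 on the air arrays and 1401 and 1313 on the ozone arrays. The ozone arrays were far above the air arrays, with a log2 difference of 2.34 (SE 0.21, adjusted p 0.0105), or 5.08-fold. On the C3H/HeJ arrays this probe set read 493 and 562 in air and 803 and 874 in ozone. The C3H/HeOuJ air arrays were thus the low ones for Reg3g, and the C3H/HeOuJ ozone arrays the high ones. A second probe set of Reg3g, of a kind that can also bind other transcripts, had 1.12 (SE 0.46, adjusted p 0.295). Saa3, an inducible serum amyloid of the acute phase made outside the liver, read 397 and 558 on the air arrays and 2562 and 2167 on the ozone arrays. This gave a log2 difference of 2.32 (SE 0.32, adjusted p 0.0461), which dropped to 0.73 when the actin ratio entered the model. Reg3g kept its size in that model, at 2.54.

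Of 25 tested genes of the acute phase and antibacterial list, 2 rose (Reg3g and Saa3) and 0 fell. By sign 18 were positive and 7 negative, with a median of 0.46 beside 0.02 over all probe sets. The arrays did not overlap for 12 members above air and 4 below it, beside 23% and 20.4% of all tested probe sets. Lcn2, a siderophore-binding protein of neutrophils and injured epithelium, read 1405 and 1571 on the air arrays and 2695 and 2387 on the ozone arrays; its difference was 0.77 (SE 0.17, adjusted p 0.0939) and did not pass. Pglyrp1, a peptidoglycan-binding protein, had 0.73. The fibrinogen chain gene Fga was not above the floor in air and read 119 and 177 in ozone. Cp, the copper oxidase ceruloplasmin, had the opposite sign, with 2382 and 3533 on the air arrays and 1421 and 1489 on the ozone arrays, and a difference of -0.996 (SE 0.20, adjusted p 0.0763).

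The promoters of both genes that rose are shown, since they were the leading pair of this group. They are the 150 bases before the transcription start, 5′ to 3′ in the direction of the gene, from RefSeq on GRCm38.p6. The Saa3 sequence is chr7:46715677-46715826 on the minus strand, and that of Reg3g is chr6:78468875-78469024, also minus. Capitals mark in Saa3 a match to TTNNGCAA or its reverse complement TTGCNNAA, the core bound by C/EBP factors of the acute phase, and in Reg3g a match to the TATA box TATAAA. The search covered both strands for the first motif and the gene's own strand for the second.
Saa3: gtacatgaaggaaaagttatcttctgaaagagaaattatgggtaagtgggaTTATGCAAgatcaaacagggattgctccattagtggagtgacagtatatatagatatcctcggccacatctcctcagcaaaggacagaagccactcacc
Reg3g: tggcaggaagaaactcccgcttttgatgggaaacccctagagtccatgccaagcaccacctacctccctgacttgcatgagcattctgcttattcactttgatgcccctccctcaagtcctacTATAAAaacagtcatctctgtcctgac
The C/EBP-like letters were found in 5.46% of all 32851 promoter windows of this length and TATAAA in 4.84%. Counting a gene once if any of its windows held the letters, the share for the C/EBP-like letters was 6.31% of all 27025 genes with an entry. In the acute phase and antibacterial list 5 of the 22 genes with a promoter entry held the C/EBP-like letters, namely Cp, Fga, Ltf, Saa3 and Saa4.

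Krt18 and Krt8, keratins of simple epithelium, rose. Krt18, the type I partner in the keratin filaments of simple epithelial cells, read 919 and 817 on the air arrays and 2505 and 3029 on the ozone arrays. Its log2 difference was 1.67 (SE 0.17, adjusted p 0.0136), or 3.18-fold. Krt8, the type II partner, read 3096 and 3031 on the air arrays and 5474 and 6792 on the ozone arrays, a difference of 0.99 (SE 0.15, adjusted p 0.0464). The air and ozone arrays did not overlap for either gene, and with the actin ratio in the model the values were 2.07 and 1.00. On the C3H/HeJ arrays Krt18 read 1083 and 1181 in air and 1434 and 1139 in ozone. Krt8 read 3632 and 3334 there in air and 4611 and 3760 in ozone. For both genes the C3H/HeOuJ air arrays thus lay below all C3H/HeJ arrays, and the C3H/HeOuJ ozone arrays above them. A second probe set of Krt18 was too dim to be tested. Another pair of simple keratins had differences that did not pass: Krt7 had 0.68 (SE 0.13, adjusted p 0.0718) and Krt19 0.77 (SE 0.15, adjusted p 0.0744). Krt7 read 5544 and 5783 on the air arrays and 9329.6 and 8834 on the ozone arrays, and Krt19 read 5335 and 5256 on the air arrays and 8408 and 9683 on the ozone arrays, so their arrays did not overlap either.

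Of 20 tested genes of the keratin and simple epithelial list, 2 rose and 0 fell on the 1 probe set taken per gene. There were 14 positive and 6 negative differences with a median of 0.22. Arrays did not overlap for 11 members above air and 3 below it, beside 23% and 20.4% of all tested probe sets. The galectin Lgals3 had 0.48 and the calcium-binding protein S100a6 0.57. Anxa1, an annexin that mediates anti-inflammatory glucocorticoid actions, was read by 3 probe sets that can share sequence with other transcripts. One of them rose by 0.94 (SE 0.15, adjusted p 0.0464), with 6475 and 5799.8 on the air arrays and 10896 and 12652 on the ozone arrays. The other 2 had 0.46 and 0.56 and did not pass. The probe set that rose had 0.65 with the actin ratio in the model.

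Markers of the lung's epithelial cell types gave no calls. In bulk lung, fewer cells of a type and less RNA per cell cannot be told apart. Sftpc, the surfactant protein of alveolar type 2 cells, read 55299 and 39537 on the air arrays and 100639 and 77498 on the ozone arrays. Its difference was 0.92 (SE 0.29, adjusted p 0.19), and the arrays did not overlap. Sftpb and Sftpd, further surfactant proteins, had the opposite sign at -0.19 and -0.80, and their arrays overlapped. Scgb1a1, the main secretory protein of club cells, read 54108 and 40168 on the air arrays and 68065 and 62015 on the ozone arrays with a difference of 0.48 (SE 0.29, adjusted p 0.461). Ager, a marker of alveolar type 1 cells, had 0.27, and Foxj1, the master regulator of ciliated cells, had -0.01. None of 13 type 2 genes (8 positive, median 0.08), 20 club and secretory genes (14 positive, median 0.15), 13 ciliated cell genes (7 positive, median 0.07) or 10 type 1 genes (7 positive, median 0.10) passed. The summed intensity of the type 2 list was 195017 and 176219 in air and 241987 and 228504 in ozone. For the club and secretory list the sums were 165718 and 135453 in air and 179228 and 183052 in ozone. Without Sftpc the type 2 sums were 139718 and 136682 in air and 141348 and 151006 in ozone, so that this gene carried most of the difference. Without Scgb1a1 the club and secretory sums overlapped, with 111611 and 95284 in air and 111164 and 121037 in ozone. Both full sums were higher on each ozone array than on each air array, beside the rise of Krt8 and Krt18, and their part in that rise was not tested. No defining marker of these lists was at the floor on all 4 arrays. Ces1g, a carboxylesterase, had the largest difference in the club and secretory list, 2.19 (SE 0.41, adjusted p 0.0646), and Gsto1, a glutathione transferase, had 0.77 (SE 0.15, adjusted p 0.0695). Cbr2, a lung carbonyl reductase of airway cells, had -1.53.

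**Figure D2:**
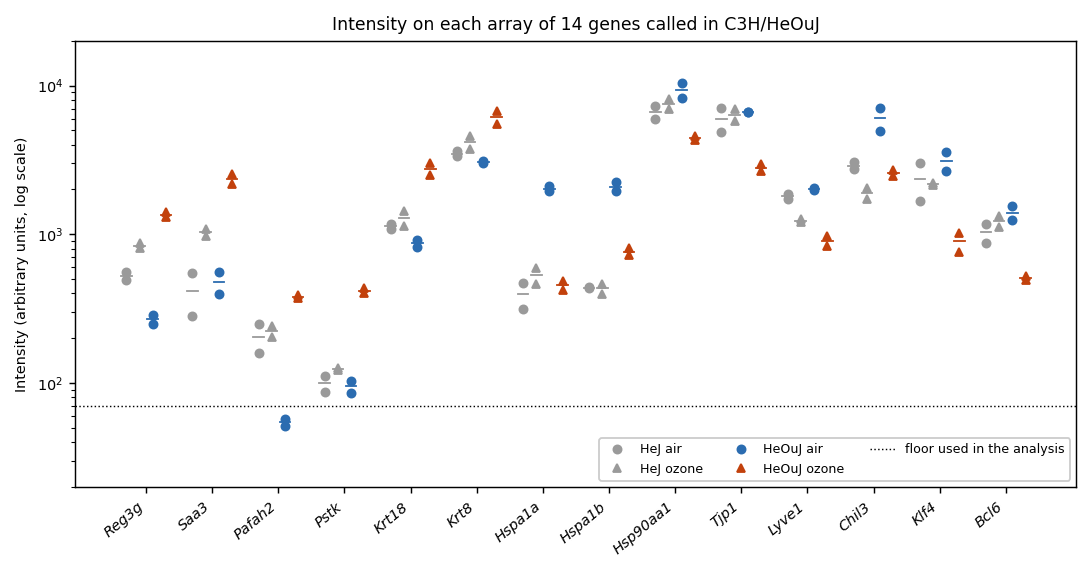
Points are the intensities of single arrays on a log axis for 14 called genes, with the mean of each pair of arrays as a short line. Blue circles are C3H/HeOuJ air, orange triangles C3H/HeOuJ ozone, grey symbols the C3H/HeJ arrays, and the dotted line is the floor of 69.6. The blue and orange points do not overlap for any of the 14 genes. For Hspa1a, Hspa1b, Hsp90aa1, Lyve1 and Chil3 the blue points also lie above all grey points. For Reg3g, Pafah2, Krt18 and Krt8 the blue points lie below all grey points.

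Inducible cytosolic chaperones were among the genes that fell. Hspa1a, a stress-inducible chaperone of the Hsp70 family, read 1961 and 2095 on the air arrays and 424 and 485 on the ozone arrays. The log2 difference was -2.16 (SE 0.26, adjusted p 0.0283), so that air was 4.47-fold higher. Hspa1b, its near-identical neighbour, read 2249 and 1941 on the air arrays and 805 and 724 on the ozone arrays, a difference of -1.45 (SE 0.19, adjusted p 0.0412). The 2 genes are so alike that the probe sets can read each other's RNA, so they are not separate observations. Hsp90aa1, the inducible cytosolic Hsp90, read 10417 and 8218 on the air arrays and 4314 and 4562 on the ozone arrays and fell by 1.06 on the log2 scale (SE 0.17, adjusted p 0.0464). A dim second probe set of Hsp90aa1 had -0.23. With the actin ratio in the model the values were -1.10 for Hspa1a, -1.55 for Hspa1b and -0.47 for Hsp90aa1.

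On the C3H/HeJ arrays Hspa1a read 316 and 472 in air and 597 and 461 in ozone, and Hspa1b read 435 and 439 in air and 399 and 466 in ozone. The C3H/HeOuJ air arrays were thus the high ones among all 8 for both genes, and the ozone arrays lay within the range of the other substrain for Hspa1a and above it for Hspa1b.

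Of 40 tested genes of the cytosolic heat shock list, 3 fell and 0 rose. Their signs were even, with 18 positive and 22 negative and a median of -0.04. Other inducible members did not pass. Hspa4, a nucleotide exchange factor of the Hsp70 cycle, read 3584 and 2748 on the air arrays and 1823 and 1705 on the ozone arrays, a difference of -0.83 (SE 0.19, adjusted p 0.101). Fkbp4, a co-chaperone of steroid receptors, had 0.45, and the testis-enriched Hspa2 had 1.13. The co-chaperone Dnaja1 had -0.46, the large chaperone Hsph1 -0.40, the constitutive Hspa8 0.09 and the co-chaperone Dnajb1 -0.05; these 4 were chosen after their values were seen. None of 20 genes of chaperones of the endoplasmic reticulum and the unfolded protein response passed on the 1 probe set taken per gene (13 positive, median 0.21). Another probe set of a member, the disulphide oxidase gene Ero1a, fell by 0.87 on the log2 scale (SE 0.14, adjusted p 0.0497), while the one taken had -0.62 (SE 0.15, adjusted p 0.118). Pdia6, a disulphide isomerase, had 1.03, and Manf, a secreted stress protein, 0.61.

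The upstream sequences of Hspa1a and Hspa1b show how alike the pair is. Both are the 150 bases before the start, minus strand, RefSeq on GRCm38.p6: chr17:34972157-34972306 for Hspa1a and chr17:34959239-34959388 for Hspa1b. Capitals mark a match to GAANNTTC or TTCNNGAA, the paired units to which heat shock factor binds. TTCNNGAA and GAANNTTC are each their own reverse complement, so 1 search covers both strands.
Hspa1a: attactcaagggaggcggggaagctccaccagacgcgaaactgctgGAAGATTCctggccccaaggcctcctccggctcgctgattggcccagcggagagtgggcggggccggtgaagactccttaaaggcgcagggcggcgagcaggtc
Hspa1b: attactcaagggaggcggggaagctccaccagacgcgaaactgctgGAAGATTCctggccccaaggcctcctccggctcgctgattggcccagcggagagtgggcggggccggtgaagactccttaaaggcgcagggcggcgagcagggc
The windows were identical at 149 of 150 bases, and the match begins 104 bases before the start in both. Such letters were found in 7.73% of all promoter windows of this length and, counting a gene once if any of its windows held them, for 8.91% of all 27025 genes with an entry. In the heat shock list 11 of the 34 genes with a promoter entry held them, among them also Dnaja1, Hspb1, Hspd1, Hspe1 and Hsph1.

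Transcription factors of the immediate early and stress class were among the falls. Klf4, a Kruppel-like factor of epithelial differentiation and of monocytes, read 2665 and 3547 on the air arrays and 1027 and 762 on the ozone arrays, a log2 difference of -1.80 (SE 0.28, adjusted p 0.0464). Bcl6, a repressor of germinal centre B cells and of inflammatory genes in macrophages, read 1249 and 1538 on the air arrays and 522 and 493 on the ozone arrays, a difference of -1.45 (SE 0.21, adjusted p 0.0464). With the actin ratio in the model, Klf4 had -0.67 and Bcl6 -0.98. Of 43 tested members of the list, 2 fell (Klf4 and Bcl6) and 0 rose; 15 were positive and 28 negative, with a median of -0.24. The arrays did not overlap for 18 members below air and 6 above it, beside 20.4% and 23% of all tested probe sets. Dusp2, a phosphatase of MAP kinases, had -0.99 (SE 0.22, adjusted p 0.0938), and Errfi1, an inhibitor of the EGF receptor, -0.53 (SE 0.11, adjusted p 0.0879). Not all members had that sign: Ccn1, a matricellular protein, had 0.87 and Ier3, an early response gene, 0.81. The glucocorticoid response list had no call among 23 members on the 1 probe set taken per gene (9 positive and 14 negative, median -0.24); its member Anxa1 had the call on another probe set given above. Its member Dusp1, another MAP kinase phosphatase, had -0.48, whereas the metallothionein genes Mt1 and Mt2 had 0.53 and 0.53.

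Tjp1, which encodes a scaffold protein of tight junctions, fell on 1 of its 2 tested probe sets. That probe set read 6649.7 and 6608 on the air arrays and 2657 and 2952 on the ozone arrays, a log2 difference of -1.24 (SE 0.19, adjusted p 0.0464), and dropped to -0.30 with the actin ratio in the model. A second probe set of Tjp1, which was not above the floor in air and read 245 and 111 in ozone, had the opposite sign at 1.25 (SE 0.38, adjusted p 0.18). The direction of Tjp1 therefore differed between its probe sets. Of 24 tested junction genes, 1 fell and 0 rose, with 9 positive and 15 negative and a median of -0.13. Cldn1 and Cldn3, claudins of epithelial tight junctions, had 1.18 and 0.41. The adaptor Vcl and the catenin Ctnnd1, both of adherens junctions, had -0.41 and -0.49. The epithelial cadherin Cdh1 read 1681 and 1669 on the air arrays and 1858 and 1219 on the ozone arrays; its difference was -0.15 (SE 0.21, adjusted p 0.765) and the arrays overlapped.

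Zfp281, Tug1 and Eif4a2 also fell. Zfp281, a zinc finger factor, read 569 and 968 on the air arrays and 55.2 and 121 on the ozone arrays, a log2 difference of -3.02 (SE 0.48, adjusted p 0.0464), with 1 ozone array under the floor. The long noncoding RNA Tug1 read 1173 and 1129 on the air arrays and 263 and 249 on the ozone arrays, a difference of -2.17 (SE 0.29, adjusted p 0.0412). Eif4a2, an RNA helicase of translation initiation, read 10503 and 9586 on the air arrays and 3751 and 4033 on the ozone arrays, a difference of -1.37 (SE 0.13, adjusted p 0.0113). The paired arrays were close for Tug1 and Eif4a2 and farther apart for Zfp281, and the groups did not overlap for any of these genes. With the actin ratio in the model Zfp281 had -0.96, Tug1 -0.79 and Eif4a2 -1.63. Rbms1, an RNA-binding protein, fell by 1.25 on the log2 scale, Mdfic, an inhibitor of developmental transcription factors, by 1.25 and the zinc finger gene Zmym4 by 1.32. In the model with the actin ratio these genes had -0.29, -0.37 and -0.56.

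Wnk1, Cd47 and Marcks were further genes that fell. Wnk1, a kinase that controls ion transporters, read 7494 and 7068 on the air arrays and 2107 and 2555 on the ozone arrays, a log2 difference of -1.65 (SE 0.14, adjusted p 0.0105) that was -1.24 with the actin ratio. Cd47, the ligand that restrains uptake by phagocytes, read 1958 and 2878 on the air arrays and 702 and 692 on the ozone arrays, a difference of -1.77 (SE 0.21, adjusted p 0.0283). Marcks, an actin-binding kinase substrate, read 2532 and 2619 on the air arrays and 668 and 726 on the ozone arrays, a difference of -1.89 (SE 0.23, adjusted p 0.0283). All 3 were lower on each ozone array than on either air array. Clic4, an intracellular chloride channel protein, fell by 1.18 on the log2 scale, Limch1, which regulates actomyosin, by 1.30, the mitochondrial extraction factor Atad1 by 1.29 and the Golgi phosphatase Bpnt2 by 1.14. With the actin ratio Clic4 and Atad1 had -1.73 and -1.52, and Marcks, Cd47, Limch1 and Bpnt2 had -0.71, -1.11, -0.83 and -0.77.

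Other probe sets of these genes mostly had smaller differences and did not pass. For Cd47 the second probe set had -0.20, for Rbms1 -0.20, for Tug1 -0.45 and for Bpnt2 -0.66. The 2 further probe sets of Wnk1 had -0.29 and -0.31. Clic4 had -0.51 on one and 0.16 on another. Limch1 had 0.52 on its second probe set, opposite in sign to the fall. A probe set reads 1 stretch of a transcript, so the calls of these genes hold for that stretch and not for the gene as a whole.

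Pafah2, which encodes a hydrolase of oxidised phospholipids and of platelet activating factor, rose from the floor. It read 57.4 and 51.5 on the air arrays and 389.6 and 374 on the ozone arrays, at least 5.48-fold higher in ozone (adjusted p 0.0464). Its log2 difference of 2.45 became 3.52 with the actin ratio in the model. The air arrays of C3H/HeOuJ were the low ones among all 8, since C3H/HeJ read 159 and 248 in air and 243 and 203 in ozone. A second probe set, near the floor on most arrays, had 0.28. Of 34 genes of aldehyde and oxidised lipid metabolism it was the 1 that rose, and 0 fell (18 positive and 16 negative, median 0.04). Aldh2, the mitochondrial aldehyde dehydrogenase, read 3982 and 4270.0 on the air arrays and 6822 and 6813 on the ozone arrays, with a difference of 0.73 (SE 0.12, adjusted p 0.0508) that narrowly missed the threshold. Akr1b8, an aldose reductase-like enzyme, read 1502 and 1397 on the air arrays and 2584 and 2704 on the ozone arrays, a difference of 0.87 (SE 0.15, adjusted p 0.0556). Both had non-overlapping arrays with higher readings in ozone. Pon1, a lactonase of lipoproteins, had -0.98.

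None of 50 genes of the antioxidant, glutathione and metallothionein list passed. Their median was 0.15, with 29 positive and 21 negative. Arrays did not overlap for 22 members above air and 9 below it, beside 23% and 20.4% of all tested probe sets. Gstt1 and Gsto1, glutathione transferases, had 0.79 and 0.77, and Gclm, the regulatory subunit of glutathione synthesis, had 0.82. Other members had negative values, the lowest being that of Cbr2, the carbonyl reductase given above, at -1.53 (SE 0.46, adjusted p 0.174). Sod3, the extracellular superoxide dismutase, read 3617 and 8576 on the air arrays and 2281 and 1855 on the ozone arrays, a difference of -1.44 (SE 0.33, adjusted p 0.0999). Gpx3, the plasma glutathione peroxidase, had -0.75. Sod3 varied more between the 2 air arrays than between the lower air array and ozone. Hmox1, the inducible haem oxygenase, read 2754 and 2305 on the air arrays and 3373 and 3011 on the ozone arrays, a difference of 0.34 (SE 0.14, adjusted p 0.294). The quinone reductase Nqo1 had 1.70 on one probe set and -0.01 on another, both dim and neither past the threshold. Pstk, a kinase needed to make selenocysteine, the amino acid of glutathione peroxidases, rose from 85.6 and 104 in air to 432 and 404 in ozone. Its difference was 2.15 (SE 0.33, adjusted p 0.0464), and 2.63 with the actin ratio in the model. The transcript D17H6S56E-5 rose too, with 649 and 389 on the air arrays and 1632 and 1867 on the ozone arrays and a difference of 1.80 (SE 0.25, adjusted p 0.0464).

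No gene of the cell division lists passed, and most had positive differences. Cks1b, a subunit of cyclin-dependent kinases, read 461 and 372 on the air arrays and 1073 and 1067 on the ozone arrays, a difference of 1.37 (SE 0.24, adjusted p 0.0606). Cdk1, the kinase that drives mitosis, read 189 and 94.3 on the air arrays and 537 and 658 on the ozone arrays, a difference of 2.16 (SE 0.45, adjusted p 0.0821). Birc5, the survivin of the chromosomal passenger complex, was chosen after its values were seen and read 63.3 and 126 on the air arrays and 385 and 376 on the ozone arrays, a difference of 2.03 (SE 0.47, adjusted p 0.0994). In each case both ozone arrays were above both air arrays. The topoisomerase gene Top2a, active in dividing cells, and the gene of the kinesin Kif20a, needed for cell separation, were not above the floor in air. Top2a read 221 and 248 in ozone, at least 3.36-fold higher (adjusted p 0.0657), and Kif20a read 295 and 419.9, at least 5.06-fold higher (adjusted p 0.0657). A second probe set of Kif20a had 0.33, the same sign and smaller.

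Of 39 tested mitosis and G2/M genes, 30 were positive and 9 negative, with a median of 0.59 beside 0.02 over all probe sets. The arrays did not overlap for 23 members above air and 3 below it, beside 23% and 20.4% of all tested probe sets. At an unadjusted p under 0.05, 16 were positive against 1 negative. Kif22, a chromosome-binding kinesin, had 1.20, Ccnb2, a mitotic cyclin, 0.83, and Smc4, a condensin subunit, had the opposite sign at -0.67, which was chosen after its value was seen. The median of this list was also positive on the C3H/HeJ arrays, at 0.51 with 36 of 39 positive. Of 42 genes of DNA replication and the G1 to S transition, 33 were positive and 9 negative with a median of 0.36; 0 passed. Mcm7, a subunit of the replicative helicase, read 386 and 397 on the air arrays and 931 and 726 on the ozone arrays, a difference of 1.07 (SE 0.25, adjusted p 0.0994), and Pcna, the sliding clamp of DNA polymerases, had 0.81. Rfc5 and Mcm3, further replication factors, had 0.65 and 0.71. Dut, which removes dUTP, had the opposite sign: it read 255 and 262 in air and was at the floor on both ozone arrays, at least 3.71-fold lower, with an adjusted p of 0.195.

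**Figure D3:**
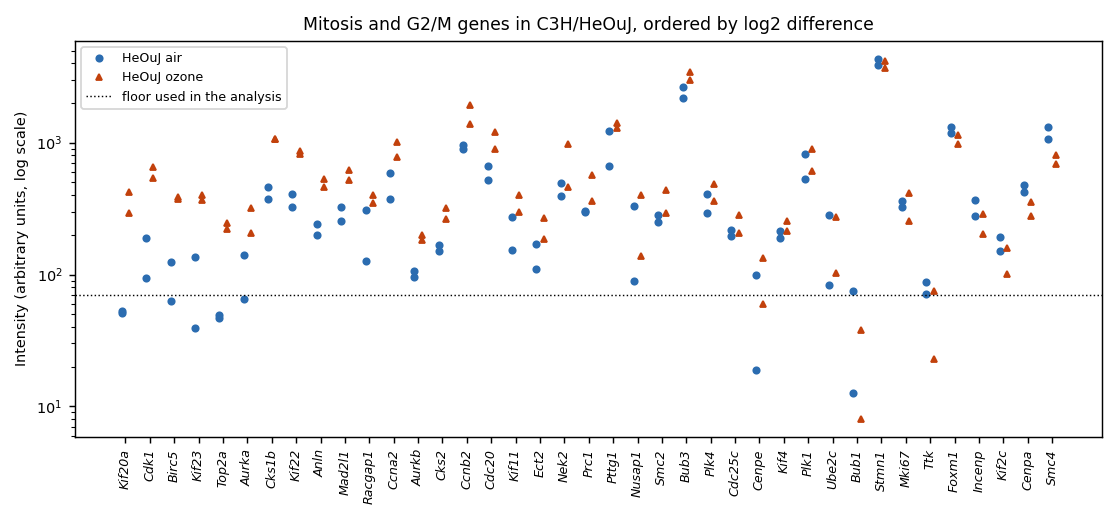
Intensities on a log axis of 39 mitosis and G2/M genes on the air arrays (blue circles) and ozone arrays (orange triangles) of C3H/HeOuJ, ordered from the largest positive to the largest negative log2 difference. For 23 genes both triangles lie above both circles, and for 3 both lie below, beside 23% and 20.4% of all tested probe sets. The dotted line is the floor of 69.6.

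The promoter of Top2a is shown because CCAAT boxes recur in promoters of the division genes. It is chr11:99024190-99024339 on GRCm38.p6, minus strand, the 150 bases before the start, from RefSeq, with each CCAAT or its reverse complement ATTGG in capitals.
Top2a: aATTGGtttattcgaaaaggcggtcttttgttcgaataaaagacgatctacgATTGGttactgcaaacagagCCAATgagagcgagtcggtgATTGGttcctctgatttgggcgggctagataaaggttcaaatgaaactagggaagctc
This window holds 4 matches. At least 1 match was found for 24 of the 31 mitosis genes with a promoter entry, and for 27.7% of all 27025 genes with one, counting a gene once if any of its windows held the letters.

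Inflammatory mediators showed few large differences, and none passed. Tnf, the tumour necrosis factor, read 103 and 73.4 on the air arrays and 231 and 247 on the ozone arrays, a difference of 1.46 (SE 0.30, adjusted p 0.0781), close above the floor. Il6, the interleukin that induces acute phase genes, was not above the floor in air and read 152 and 81 in ozone. Csf3, the granulocyte colony-stimulating factor, read 398 and 364 on the air arrays and 94.4 and 196 on the ozone arrays, a difference of -1.48 (SE 0.40, adjusted p 0.145). Thus Tnf and Csf3 had opposite signs. Among 38 cytokine genes 20 were positive and 18 negative (median 0.00), and among 33 chemokine and receptor genes 14 were positive and 19 negative (median -0.07). Ccl9, a chemokine of macrophages, had -1.21 (SE 0.25, adjusted p 0.0821), and Cxcl5, a neutrophil-attracting chemokine, 1.09 (SE 0.37, adjusted p 0.222). Cxcl2 and Ccl2, chemokines of neutrophils and monocytes, had -0.10 and 0.14 from dim and overlapping readings, as had the inducible nitric oxide synthase Nos2 (0.25).

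Genes around the endotoxin receptor and NF-kB were 18 positive and 6 negative among 24, with a median of 0.16 and 0 calls. The co-receptor Cd14 read 2573 and 2284 on the air arrays and 2797 and 3696 on the ozone arrays, a difference of 0.41 (SE 0.16, adjusted p 0.262). The adhesion molecules of inflamed vessels had opposite signs, with 0.45 for Icam1 and -0.86 for Vcam1. Of 28 interferon response genes 8 were positive and 20 negative, with a median of -0.22, and 0 passed. Arrays did not overlap for 14 members below air and 5 above it, beside 20.4% and 23% of all tested probe sets. Iigp1, an immunity-related GTPase, had -0.84 (SE 0.17, adjusted p 0.0715), and Rsad2, the antiviral viperin, -2.05 (SE 0.60, adjusted p 0.164), whereas Ifit3, an interferon-induced protein, had 0.71. Among 26 complement and coagulation genes 14 were positive (median 0.12, 0 calls), with C1qa, a chain of the first complement component, at 0.76 (SE 0.18, adjusted p 0.0999) and the tissue factor gene F3 at 0.56.

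Chil3, a chitinase-like protein secreted by alveolar macrophages, fell. It read 7031 and 4978 on the air arrays and 2719 and 2459 on the ozone arrays, a log2 difference of -1.19 (SE 0.18, adjusted p 0.0464), and had -1.29 with the actin ratio in the model. C3H/HeJ read 3060 and 2738 in air and 2062 and 1730 in ozone. The C3H/HeOuJ ozone arrays thus lay within the C3H/HeJ range, and the C3H/HeOuJ air arrays lay above it. Of 30 tested macrophage and phagocyte genes Chil3 was the 1 that fell, and 0 rose, with 15 positive, 15 negative and a median of 0.05. The summed intensity of the list was 92664 and 79898 in air and 101144 and 89806 in ozone, and its part in the result was not tested. The defining marker Cd68, a lysosomal glycoprotein, had 0.41 on its tested probe set, and the scavenger receptor gene Marco was under the floor on all 4 arrays. Itgam, an integrin of myeloid cells, was at the floor in air and read 174 and 155 in ozone. The lipid droplet protein Plin2 had 0.44, and the lipase Lpl -0.89.

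Other leukocyte lists had no calls. Among 21 neutrophil granule genes 14 were positive, with a median of 0.21, but at an unadjusted p under 0.05 in limma 2 were positive and 4 negative. The defining markers had both signs, with -0.42 for S100a9, 0.58 for Elane, and 0.67 and 0.35 on the probe sets of Mpo. S100a8, an abundant neutrophil calcium-binding protein, read 2936 and 2468 on the air arrays and 1506 and 1779 on the ozone arrays, a difference of -0.72 (SE 0.16, adjusted p 0.0938), opposite in sign to Lcn2. The summed neutrophil list read 13298 and 12101 in air and 11941 and 13669.5 in ozone, which overlap. The 21 B and plasma cell genes had a median of 0.03 and the 24 T and NK cell genes one of 0.05. Ighm, the immunoglobulin heavy chain of IgM, had 0.56 (SE 0.13, adjusted p 0.0945) on its probe set of smallest p, and Ms4a1, a B cell surface protein, 0.58. Other members had the opposite sign: the joining chain gene of secreted antibodies, Jchain, had -0.55, the B cell adaptor gene Blnk -0.66 and Igha, the heavy chain of IgA, -0.36. Further probe sets of Ighm had both signs. A bright one had -0.33, with both ozone arrays below both air arrays, and another had 0.06 with overlapping arrays. Among the dimmer ones, those with 0.50, 0.92 and 1.08 had both ozone arrays above both air arrays. The other dim ones tested, from -0.21 to 0.95, had overlapping arrays. The 16 genes of MHC class II presentation had 12 positive values and a median of 0.14, with the class II chain gene H2-Eb1 at 0.48 (SE 0.15, adjusted p 0.184). Cd74, the brightest member, had the opposite sign. It read 17319 and 23011 on the air arrays and 15650 and 16626 on the ozone arrays, a difference of -0.31 (SE 0.19, adjusted p 0.463).

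Lyve1, a hyaluronan receptor of lymphatic endothelium, fell. It read 2058 and 1998 on the air arrays and 829.8 and 977 on the ozone arrays, a log2 difference of -1.17 (SE 0.14, adjusted p 0.0288) and -0.95 with the actin ratio in the model. Flt4, the receptor of lymphatic growth factors, read 954 and 1628 on the air arrays and 441 and 561 on the ozone arrays, a difference of -1.32 (SE 0.27, adjusted p 0.0744), and Emcn, a sialomucin of capillaries and veins, read 2191 and 2107 on the air arrays and 1325 and 1384 on the ozone arrays, a difference of -0.67 (SE 0.14, adjusted p 0.0762). The arrays of these 3 genes did not overlap. Of 27 endothelial genes 1 fell and 0 rose, and 6 were positive against 21 negative with a median of -0.21. The adhesion molecule Pecam1 had -1.25 (SE 0.39, adjusted p 0.187) and the angiopoietin receptor Tek -0.51. In contrast, Car4, a carbonic anhydrase of lung capillaries, had 0.41, and Kdr, the main receptor of vascular growth factor, 0.32. The summed endothelial list read 103479 and 115491 in air and 95891 and 99992 in ozone, beside the fall of Lyve1, and its part was not tested; none of its members was at the floor on all 4 arrays.

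Collagens and other matrix genes were mostly negative. Of 49 tested, 1 rose and 0 fell, with 18 positive and 31 negative and a median of -0.20, which became 0.014 with the actin ratio in the model. The gene that rose was Col9a1, a collagen of cartilage and epithelial basement zones, which read 345 and 425 on the air arrays and 1133 and 906 on the ozone arrays, a difference of 1.40 (SE 0.22, adjusted p 0.0464). C3H/HeJ read 634 and 654 in air and 571 and 616 in ozone, between the air and ozone readings of C3H/HeOuJ. Lox, the enzyme that cross-links collagen and elastin, read 1834 and 1530.3 on the air arrays and 624 and 726 on the ozone arrays, a difference of -1.32 (SE 0.22, adjusted p 0.0505). On the C3H/HeJ arrays Lox read 551 and 755 in air and 692 and 818 in ozone. The C3H/HeOuJ air arrays were thus the high ones for Lox. Col6a1 and Col1a1, collagens of interstitial matrix, had -0.87 and -0.50, and Col5a2 had -0.54. None of 29 matrix protease and inhibitor genes passed (15 positive, median 0.09): the cathepsin gene Ctsh, which helps to process surfactant proteins, had 0.60 (SE 0.12, adjusted p 0.0695), the collagen chaperone gene Serpinh1 0.62 (SE 0.14, adjusted p 0.0999) and the inhibitor Timp3 -0.38. Smooth muscle and fibroblast genes numbered 9 positive and 13 negative (median -0.13), with the contractile markers Acta2 and Tagln at -0.12 and -0.06.

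Nhp2 and Nme2, of the list of nucleotide metabolism and ribosome biogenesis, rose. Nhp2, a protein of the ribonucleoproteins that modify ribosomal RNA, read 575 and 686 on the air arrays and 1565 and 1417 on the ozone arrays, a difference of 1.25 (SE 0.20, adjusted p 0.0464). Nme2, a nucleoside diphosphate kinase, read 3742 and 2950.2 on the air arrays and 6729.7 and 6136 on the ozone arrays. Its difference was 0.95 (SE 0.16, adjusted p 0.0497), and 0.66 with the actin ratio in the model. Eif4a2 of the same list fell; the list's 31 members had 17 positive and 14 negative values and a median of 0.07. Of 51 genes of oxidative phosphorylation 0 passed, 38 were positive and 13 negative, and the median was 0.20; 11 were positive and 0 negative at an unadjusted p under 0.05. The cytochrome oxidase subunits Cox6c and Cox5b had 0.80 (SE 0.15, adjusted p 0.0675) and 0.82 (SE 0.16, adjusted p 0.0715), and the complex I subunit Ndufb6 had 0.88. The 31 cytosolic ribosomal protein genes had 20 positive values and a median of 0.11. None of 36 cardiac and skeletal muscle genes passed (24 positive, median 0.15), with the cardiac myosin Myh6 at 0.37, and none of 16 circadian clock genes (8 positive and 8 negative). Actc1, another cardiac marker, had -0.54 (SE 0.15, adjusted p 0.156) on 1 probe set and 0.10 on another. Nppa had 0.16, and Myl2 was not above the floor on the C3H/HeOuJ arrays.

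**Figure D4:**
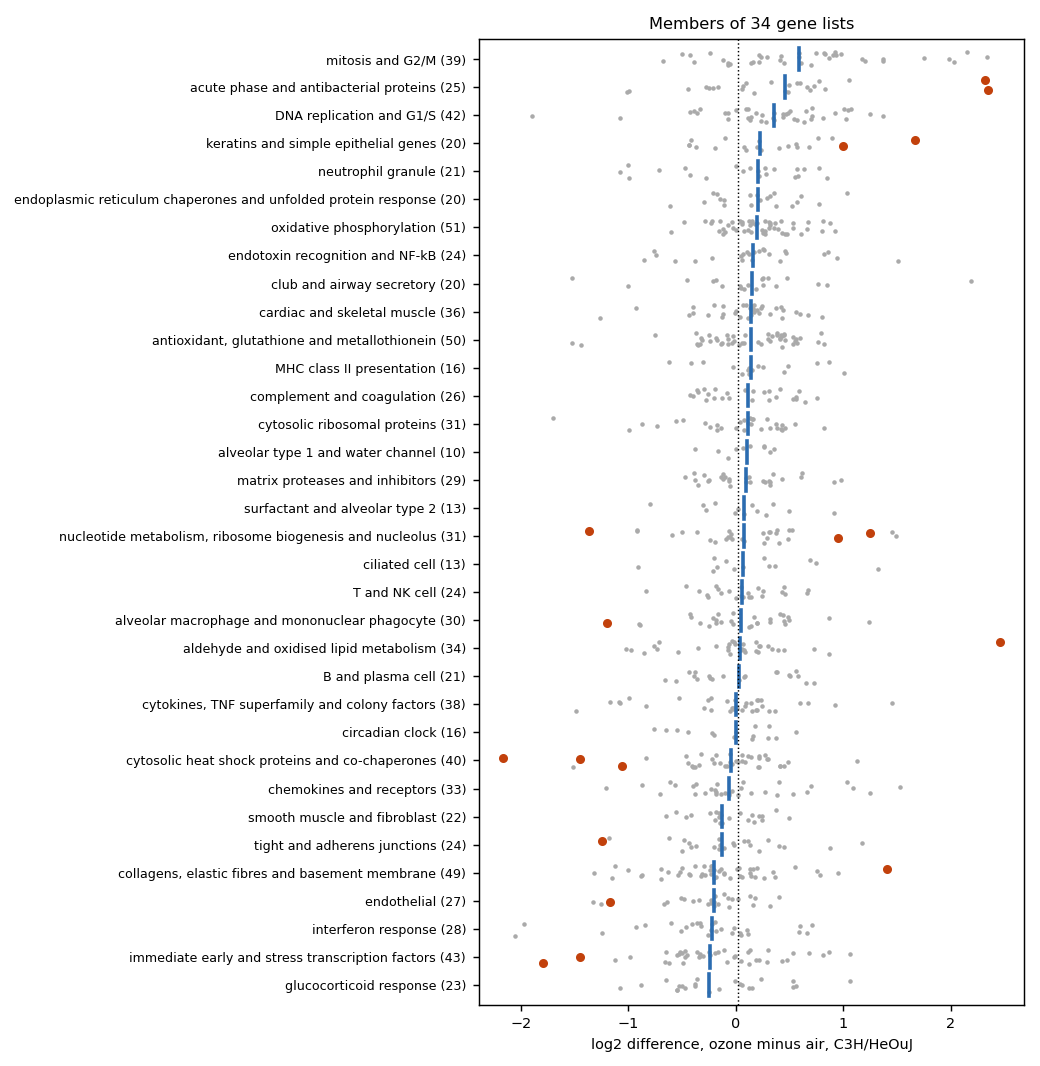
Grey points are the log2 differences, ozone minus air in C3H/HeOuJ, of the tested members of 34 gene lists, 1 probe set per gene, with the number tested in brackets; filled orange points passed the threshold and blue bars are list medians. The dotted line is the median of all tested probe sets, 0.02; list medians run from -0.24 for the glucocorticoid response to 0.59 for mitosis and G2/M.

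Some transcripts were read on one side of the floor in air and on the other in ozone. There were 33 probe sets at the floor on each of the air arrays and over 139 on both ozone arrays, and 19 the other way round. Besides Pafah2, Kif20a and Top2a, the first kind included Erp29, a chaperone of secretory proteins (39.4 and 68.9 on the air arrays and 494 and 215 on the ozone arrays), and Tspan5, a tetraspanin (67.4 and 66.7 on the air arrays and 201 and 395 on the ozone arrays). Tff2, a trefoil peptide of mucous epithelium, read 15.8 and 48.6 on the air arrays and 224 and 265 on the ozone arrays, and a probe set of the amino acid transporter gene Slc38a2 read 28.1 and 20.9 on the air arrays and 278 and 197 on the ozone arrays. All 4 were higher by a factor of at least 3.36, and their adjusted p-values ran from 0.0622 for Tspan5 to 0.126 for Tff2. The second kind included Reln, a secreted matrix glycoprotein (365 and 260.4 on the air arrays and 40.1 and 54.9 on the ozone arrays), and Has2, a hyaluronan synthase (279 and 186 on the air arrays and 26.9 and 44.7 on the ozone arrays). Reln was at least 4.43-fold lower (adjusted p 0.0556) and Has2 at least 3.28-fold lower (adjusted p 0.137). Of these genes, Pafah2 alone passed, and 1 unnamed probe set of the second kind passed too, at least 5.69-fold lower (adjusted p 0.0464); its log2 difference of -2.51 became -1.44 with the actin ratio in the model.

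The C3H/HeJ arrays give the same exposure contrast in the related substrain, for which the labels state no duration. The difference between the ozone effects of the substrains was tested in the same model, and 0 of 10953 probe sets passed (0%), with 1252 at an unadjusted p under 0.05 and a smallest adjusted p of 0.0509. That p belonged to Wnk1 and Eif4a2 among the genes above, with differences of -1.86 and -1.66, and to the Ighm probe set of smallest p, with 1.59. In C3H/HeJ the ozone effect itself was 0.21 for Wnk1, 0.29 for Eif4a2 and -1.03 for that Ighm probe set. The C3H/HeJ values of the leading rises were 0.67 for Reg3g, 1.39 for Saa3, 0.18 for Krt18 and 0.26 for Krt8. For these genes the adjusted p of the difference between substrains was 0.156, 0.489, 0.156 and 0.275 in turn, so none was shown to differ. For the falls the C3H/HeJ values were 0.44 for Hspa1a (adjusted p of the difference 0.115), -0.54 for Lyve1 (0.312) and -0.62 for Chil3 (0.444).

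With the log2 ratio of the actin controls as a covariate, 0 of the 50 probe sets passed, and 328 of all tested had an unadjusted p under 0.05. All 50 kept their sign. The covariate follows the exposure closely in this substrain, which raises the standard error of the called probe sets to a median of 0.39. For 29 of the 50 the value stayed within 1.5 times of its size, and for 21 it shrank by more. The 14 called higher held 1 of those that shrank, Saa3, and the 36 called lower held 20. Medians went from 1.43 to 1.22 for the rises and from -1.19 to -0.78 for the falls.

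**Figure D5:**
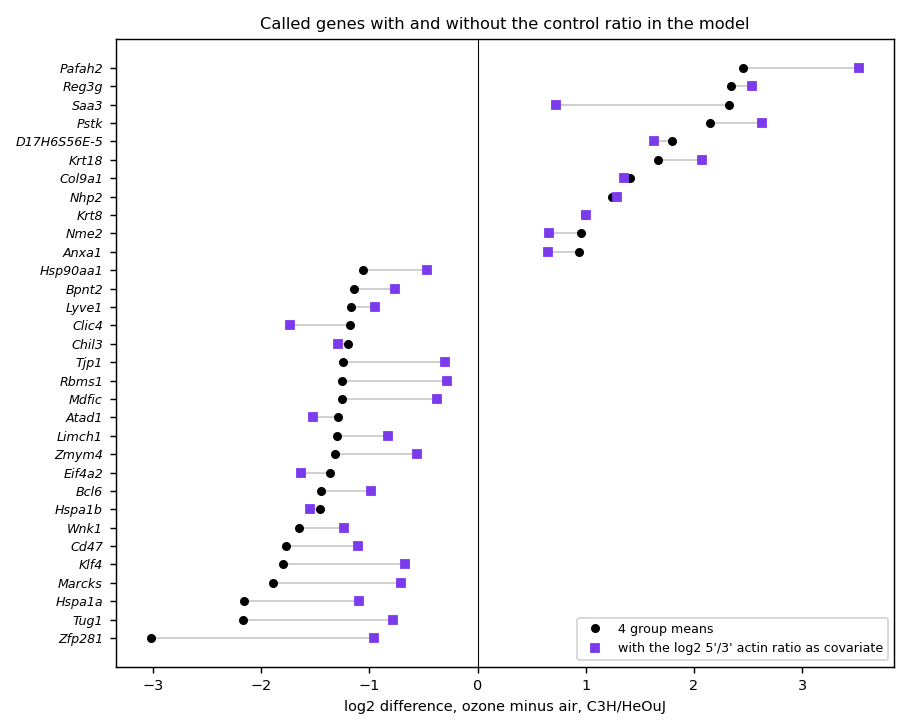
Log2 differences, ozone minus air in C3H/HeOuJ, of the named genes that passed, from the model of 4 group means (black circles) and with the log2 actin 5'/3' ratio added (violet squares). Reg3g, Krt18, Krt8, Hspa1b and Eif4a2 stay near their values, while Saa3, Zfp281, Tug1, Marcks and Tjp1 shrink towards 0 without crossing it.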

How the data were processed

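Whole-lung RNA of C3H/HeOuJ and C3H/HeJ mice had been read on 8 arrays, 2 per strain and exposure. The deposited intensity values are on a linear scale, 1 per probe set and array; their 2% trimmed mean was 800.4 on every array, so the authors had scaled them, with software not given in the sources used here. The 66 controls among the 12488 probe sets were left out. Lower values were set to the 20th percentile, 69.6, as a floor (log2 6.12) before the log2 step. The test covered the 10953 probe sets that exceeded the floor on 2 or more of the 8 arrays, and 1469 dimmer ones stayed out. Gene names are those of an array annotation of 2016, with a single gene for 10833 probe sets, more than 1 for 396 and no gene for 1193.

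A model of 4 group means over all 8 arrays was fitted with limma 3.58.1 in R 4.3.3 with moderated variances that followed intensity (4 residual and 4.54 prior degrees of freedom). A call is a Benjamini-Hochberg adjusted p under 0.05 over all probe sets tested. Errors are the model's standard errors. Differences are ozone minus air on the log2 scale, each from 2 arrays a group. Where a group lay at the floor on both arrays, a fold is a lower bound. The model was tested on simulated data. Gene lists, 34 in number, took the probe set of highest mean per gene and were described by counts and medians. The comparison, the lists and the genes were chosen with earlier results of these data known. Genes named were up to 15 of the largest rises that passed, of which there were 11, and the 20 largest falls that passed. Further ones were up to 6 members of smallest p in a list, 25 genes of interest, up to 10 probe sets at the floor in either exposure, and defining markers of cell types. Alternatives changed the normalisation, floor, filter, variance model, arrays and threshold. Leaving out arrays for the list medians was chosen after seeing the data. Promoter sequences and motif searches used RefSeq windows of GRCm38.p6. Figures were drawn with matplotlib 3.10.9 under Python 3.11.15.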

Additional observations from a re-analysis of the deposited data

Results flagged for a closer look

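The control probe sets of actin and Gapdh, which stand outside the gene measurements, had higher 5' to 3' ratios on the C3H/HeOuJ ozone arrays than on the C3H/HeOuJ air arrays. The actin ratio was 0.766 on ozone array 1a and 0.756 on ozone array 1b, above the 0.598 and 0.603 of the air arrays. The Gapdh ratio was 1.34 on ozone array 1a and 1.18 on ozone array 1b, above the 1.06 and 0.853 of the air arrays. On the C3H/HeJ arrays the actin ratio lay between 0.432 and 0.53 and the Gapdh ratio between 0.775 and 0.897.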

How the results depend on the processing

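The count of 14 probe sets called higher became 22 with the floor at the 10th percentile, 31 at the 30th, 36 with log2(value + 32) and no floor, 24 without a filter, 26 with a filter on the C3H/HeOuJ arrays, 55 among probe sets above the median intensity, 3 with array weights and 96 at a threshold of 0.10. The count of 36 called lower became 57 with the floor at the 30th percentile, 74 with log2(value + 32), 59 with the filter on the C3H/HeOuJ arrays, 117 above the median intensity, 3 with array weights and 148 at 0.10. Both counts became 0 without the intensity trend (1523 at an unadjusted p under 0.05), with only the 4 C3H/HeOuJ arrays (1240) and with the actin ratio as covariate (328). Leaving out 1 array gave 0 to 4 higher and 0 to 18 lower; the calls that remained were those without C3H/HeJ air 1a (22) or 1b (21), and the count was 0 without any other single array, at 1216 to 2239 unadjusted. The unfiltered fit shared 14 of its 48 calls with the 50. Calls for the difference between substrains numbered 3 with quantile normalisation, 3 with the floor at the 10th or 30th percentile, 9 with log2(value + 32), 10 without a filter, 3 with the filter on the C3H/HeOuJ arrays, 9 above the median intensity and 3 at 0.10; leaving out 1 array gave 0 in each case. With the replicate letters as a block, 15 were higher and 42 lower, 39 of them among the 50, and the difference between substrains had 0 calls; the letters do not pair the arrays by the labels, and the 1a minus 1b deviations of air and ozone in C3H/HeOuJ correlated at 0.036, with -0.010 to 0.138 over all 6 pairs of groups.

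The 33 probe sets named and called kept their sign under every alternative run, and 31 of 216 named and not called changed sign under at least 1. The cause of these changes was not tested. The list medians of mitosis (0.47 to 0.87), DNA replication (0.23 to 0.45), acute phase genes (0.22 to 0.46), keratins (0.14 to 0.39), oxidative phosphorylation (0.083 to 0.27) and endothelium (-0.32 to -0.074) kept their sign under the alternatives run, leaving out each C3H/HeOuJ array included. In all, 14 of the 34 list medians kept their sign and 20 changed it, or were 0, under at least 1 of these alternatives. Among the 20 were collagens (-0.27 to 0.014), junction genes (-0.16 to 0.002), neutrophil granules (-0.15 to 0.21), chaperones of the endoplasmic reticulum (-0.034 to 0.35), endotoxin recognition and NF-kB (-0.041 to 0.24), MHC class II (-0.081 to 0.25), type 2 cells (-0.097 to 0.25), complement (-0.077 to 0.15), heat shock proteins (-0.14 to 0.037), ribosomal proteins (-0.067 to 0.25) and smooth muscle (-0.18 to 0.017). Dim probe sets, whose readings lie near the floor, carry the widest error.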
